A study of Homo sapiens with 15 samples.

Results

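The comparison set 2 media libraries, labelled HDM media and regular media, against 4 libraries of cells from culture plates, labelled HF6 plate 2, HF6 plate 3, HF7 plate 2 and HF7 plate 3. These 6 libraries were grouped by their labels, with earlier results of these data known. They come from 14 libraries with a column in the microRNA (miRNA) count table. All of them carry the label DiFi, a long-established line of human colorectal cancer cells, the same tissue entry throughout and no genotype, drug or time recorded. The series was made to try out culture conditions for collecting extracellular small RNA. HDM and HF are not explained in the labels, nor do these say whether the media libraries hold RNA from the medium itself or from cells grown in it. The extraction text speaks of extracellular samples for every library, the plate cells included. One more sample, HDM medium without cells, was not analysed here, so no background of the medium itself was measured. No label says that replicates are separate cultures, so the p-values below measure only the spread between these samples, and each medium is 1 library.

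A miRNA is a short RNA cut from a hairpin precursor, and either arm of the hairpin, 5p or 3p, can be kept. It guides Argonaute proteins to messenger RNAs, mostly through its seed, and so lowers the output of those messengers. Cells also release miRNAs, in vesicles and in vesicle-free particles such as exomeres and supermeres, and the released mixture can differ in composition from that inside the cell. In gut epithelium the miR-200 family and miR-192, miR-194 and miR-215 are abundant, and miR-21 is abundant in colorectal tumours.

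The sequences below belong to miRNAs on which the comparison turned, and show which of them share a seed. They are the RefSeq mature sequences of the GRCh38.p14 table, written 5′ to 3′ with the seed, bases 2 to 8, in capitals. The first 8 were higher in the media libraries and the last 8 lower.
miR-1247-5p: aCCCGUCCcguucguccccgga
miR-326: cCUCUGGGcccuuccuccag
miR-552-5p: gUUUAACCuuuugccuguugg
miR-625-3p: gACUAUAGaacuuucccccuca
miR-181a-5p: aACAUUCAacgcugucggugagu
miR-181b-5p: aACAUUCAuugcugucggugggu
miR-23a-3p: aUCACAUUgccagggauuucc
miR-23b-3p: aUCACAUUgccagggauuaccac
miR-146a-5p: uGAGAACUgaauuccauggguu
miR-429: uAAUACUGucugguaaaaccgu
miR-200b-3p: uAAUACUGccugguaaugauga
miR-200a-3p: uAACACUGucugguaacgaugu
miR-194-5p: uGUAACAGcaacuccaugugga
miR-101-3p: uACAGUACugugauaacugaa
miR-378a-3p: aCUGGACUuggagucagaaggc
miR-378c: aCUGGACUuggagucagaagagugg
miR-181a-5p and miR-181b-5p have the same seed and differ at 3 of 23 aligned bases. miR-23a-3p and miR-23b-3p differ at 1 of 21, so reads may have been split between them. miR-429 shares its seed with miR-200b-3p and differs from it at 6 of 22 bases. miR-378a-3p and miR-378c share a seed and differ at 2 of 22.

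In the GRCh38 coordinates of the deposited table, miR-1247-5p lies at chr14:101560362-101560383, in an exon of the long non-coding RNA DIO3OS. miR-326 is at chr11:75335108-75335127 in an intron of ARRB1, and miR-625-3p is at chr14:65471153-65471174 in an intron of FUT8. miR-552-5p is at chr1:34669650-34669670, outside any annotated host gene on its strand. The first of 2 locations of miR-181a-5p is chr1:198859108-198859130, and the first of 2 of miR-181b-5p is chr1:198858925-198858947, both in an intron of MIR181A1HG. miR-146a-5p is at chr5:160485372-160485393, in an exon of the non-coding gene MIR3142HG. On chromosome 1, miR-200b-3p (chr1:1167160-1167181), miR-200a-3p (chr1:1167916-1167937) and miR-429 (chr1:1169055-1169076) lie side by side on the same strand.

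Library totals were 4811447 counts for HDM media, 4896931 for regular media, and 4184909, 1246503, 3364828 and 3816510 for HF6 plate 2, HF6 plate 3, HF7 plate 2 and HF7 plate 3. The plate library with the lowest total, HF6 plate 3, therefore has the coarsest low values, with 3 counts standing for 2.41 CPM, the counts scaled to a common library total. Levels below are CPM after TMM scaling, which corrects for differences in composition, and plates are listed in the order HF6 plate 2, HF7 plate 2, HF6 plate 3 and HF7 plate 3. miR-21-5p was the most abundant miRNA in all 6 libraries, at 12.9% to 16.4% of the counts. Gut epithelial miRNAs were abundant in both groups, as the colorectal label implies. The 9 listed miR-200 family members summed to between 123980 and 186061 CPM, and the 6 arms of miR-192, miR-194 and miR-215 to between 97979 and 140518 CPM. Pearson correlations of log2 CPM were taken over 285 miRNAs, in libraries that share library preparation within the series but not depth. They were 0.991 between the media libraries, 0.958 to 0.978 between a medium and a plate, and 0.987 to 0.994 between plates.

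Of 547 miRNAs tested, 49 were higher and 38 lower in the media libraries than in plates 2 and 3. These 87 calls are 15.9% of the miRNAs tested, with 8.96% higher and 6.95% lower (edgeR quasi-likelihood test, Benjamini-Hochberg adjusted p under 0.05). Of the called miRNAs 29 were at least 2-fold higher and 21 at least 2-fold lower, with median log2 fold changes of 1.03 for the 49 higher and -1.07 for the 38 lower. The median log2 fold change of all tested miRNAs was 0.04. Where a list below is set against the share of 1 direction, that direction was picked once the values were known. The 2 media libraries lay wholly above or wholly below the 4 plates for 203 miRNAs, 37.1% of those tested, and 84 of the 87 called were among them. An exact permutation test of 2 libraries against 4 cannot go below p = 0.0667, so these calls rest on the spread pooled over all miRNAs. Fits with 1 medium left out, given below, called a smaller share of all miRNAs. Few calls in a list there therefore need not concern that list. Folds are relative within a library, because the table holds no added reference RNA. The count depended on the HDM media library, since regular media alone against the same plates gave 17 calls.

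**Figure D1:**
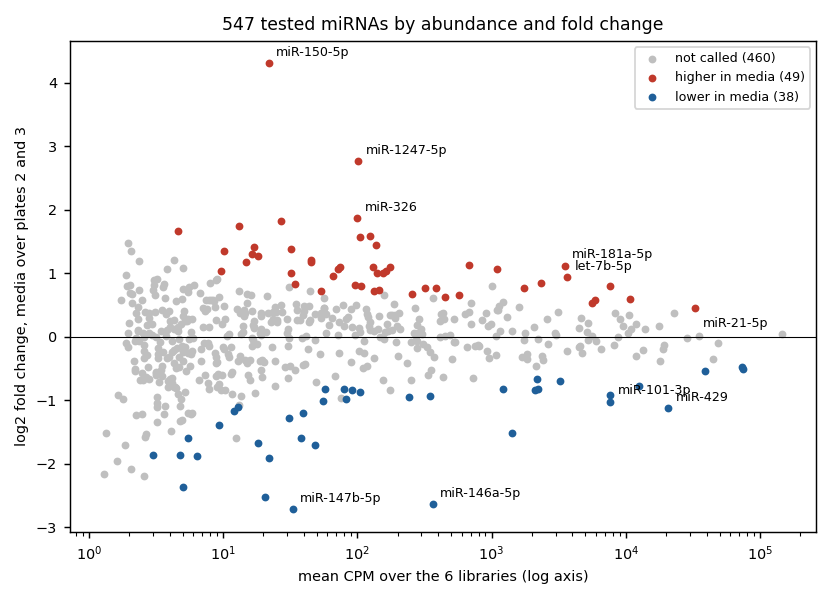
Log2 fold change (media over plates 2 and 3, vertical axis) against mean CPM over the 6 libraries (log axis) for the 547 tested miRNAs, with 49 higher in red, 38 lower in blue and the rest in grey. miR-150-5p stands highest at 4.31, miR-147b-5p and miR-146a-5p stand near the bottom at -2.72 and -2.64, and miR-21-5p lies at 0.03 on the right.

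The largest increase among miRNAs of at least 100 CPM in either group was that of miR-1247-5p, whose gene neighbours the imprinted thyroid hormone deiodinase gene DIO3. Its level was 323 CPM in HDM media and 149 in regular media, and 32.7, 32.8, 31.2 and 41.2 in the plates. Both media lay far above all plates, and the plates lay close together. The fit gave a log2 fold change of 2.76 ± 0.26 (SE), or 6.8-fold, at an edgeR adjusted p of 1.94e-07. Without HDM media the log2 fold change was 2.13 (adjusted p = 0.000421). miR-326, encoded in an intron of the beta-arrestin gene ARRB1, followed. It stood at 248 and 139.5 CPM in HDM and regular media, against 52.5, 58.9, 49.8 and 51.5 in the plates. That separation amounted to 3.63-fold (log2 1.86 ± 0.24 SE, edgeR adjusted p = 1.21e-05). For both miRNAs HDM media was the higher of the pair.

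miR-150-5p, a miRNA of mature lymphocytes, had the highest fold change of any tested miRNA but a low level. Its counts were 450 in HDM media and 173 in regular media, against 18, 15, 2 and 3 in the plates, equal to 84.0 and 36 CPM against 4.20, 4.55, 1.69 and 0.818. The plate 3 values are at or under 3 counts, so their size is poorly known. The fitted log2 fold change was 4.31 ± 0.42 (SE, edgeR adjusted p = 1.95e-07). Without HDM media it was 3.59 (adjusted p = 0.00106). Summed over libraries, the ratio of the media share to the plate share was 21.3, with an exact 95% interval for counting error of 15.3 to 30.4. miR-574-5p and miR-574-3p, named here after their values were seen, were also higher, at 3.54-fold and 2.60-fold, but neither passed without HDM media (log2 1.20 and 0.89, edgeR adjusted p = 0.094 and 0.26).

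miR-552, described as raised in colorectal tumours, was higher in both arms. The 5p arm stood at 199 CPM in HDM media and 249 in regular media, and at 77.0, 75.9, 77.7 and 67.3 in the plates. Here regular media was the higher medium, and the plates lay close together. The change was 3.01-fold (log2 1.59 ± 0.21 SE, edgeR adjusted p = 1.98e-05). The 3p arm was at 114 and 106 CPM in the media and at 47.6, 39.5, 55.7 and 68.2 in the plates, which is 2.1-fold. miR-625-3p, from an intron of the fucosyltransferase gene FUT8, was at 249 and 230.5 CPM against 83.3, 105, 81.9 and 83.7. It was 2.70-fold higher (log2 1.44 ± 0.21 SE, edgeR adjusted p = 5.96e-05), and HF7 plate 2 stood above the other plates. miR-552-3p passed with HDM media alone but not with regular media alone (log2 1.04, edgeR adjusted p = 0.094).

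The list of miRNAs reported to be raised in colorectal tumours had 7 of 13 tested members higher and 1 lower, with a median log2 fold change of 1.07, against 15.9% called and a median of 0.04 over all miRNAs. The higher members were both arms of miR-135b, miR-552 and miR-625, and miR-224-3p. miR-135b-5p, which targets the tumour suppressor APC, was at 1054 and 1075 CPM in HDM and regular media and at 469.9, 339, 727 and 415 in the plates. Its plates varied among themselves, with HF6 plate 3 nearest the media. The change was 2.19-fold (log2 1.13 ± 0.23 SE, edgeR adjusted p = 0.00209). miR-224-3p was at 72.2 and 70.2 CPM against 25.9, 28.5, 39.7 and 33.8, or 2.26-fold higher. miR-224-5p differed by log2 0.48 and did not pass (edgeR adjusted p = 0.077). The difference between these 2 arms did not pass (limma adjusted p = 0.258). miR-592 was the member that fell, by 0.93 on the log2 scale. miR-21-5p, the list's most abundant member, was at 131498 and 166951 CPM in the media and at 154265, 148443, 146359 and 133979 in the plates. Those ranges overlap, and the log2 difference was 0.03 ± 0.13 (SE, edgeR adjusted p = 0.89). Without HDM media, 3 of the 13 were called, which were miR-552-5p, miR-625-3p and miR-224-3p. The list was drawn up with earlier results of these data known.

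**Figure D2:**
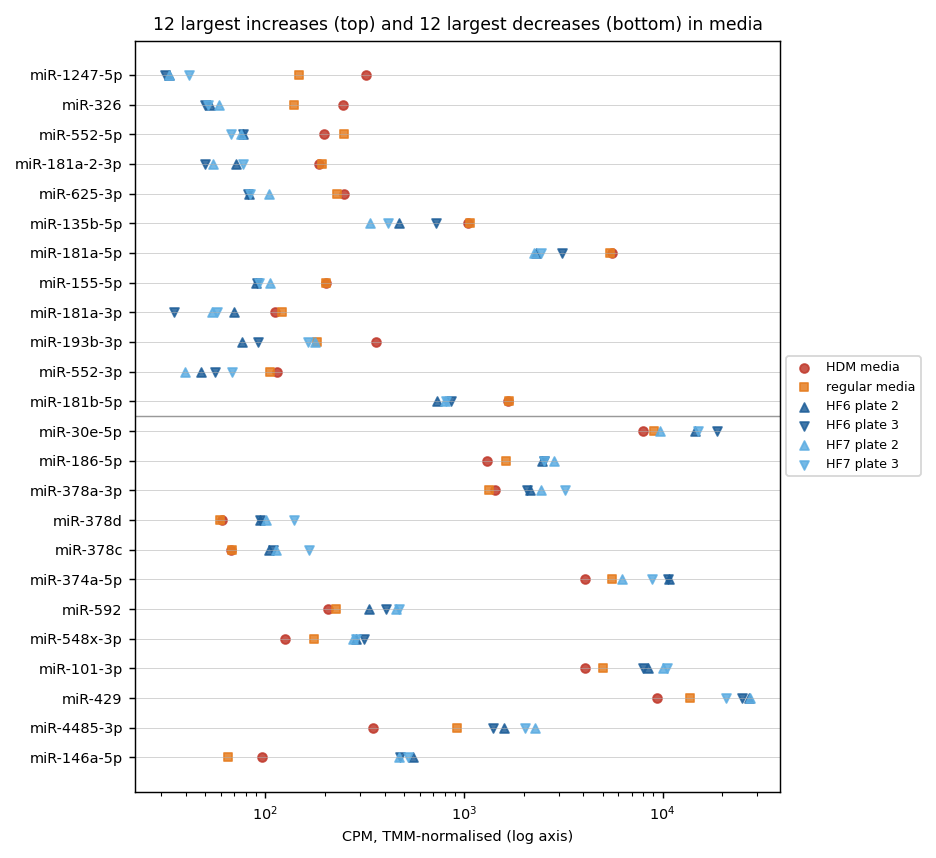
TMM-normalised CPM (log axis) of the 12 miRNAs with the largest increase and the 12 with the largest decrease, 1 point per library, with HDM media as circles, regular media as squares, plate 2 as upward and plate 3 as downward triangles. The media points of miR-1247-5p (323 and 149) lie right of all plates (31.2 to 41.2), and those of miR-146a-5p (96.8 and 65.2) lie left of all plates (472 to 553).

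The miR-181 family, which tunes antigen receptor signalling in lymphocytes and also occurs in epithelial tumours, had 4 of 7 tested members higher and none lower, against 8.96% higher over all miRNAs, with a median log2 fold change of 1.06. miR-181a-5p was at 5558 CPM in HDM media and 5448 in regular media, and at 2308, 2252, 3137 and 2457 in the plates. The media agreed closely and both stood well above HF6 plate 3, the highest plate. This was 2.17-fold (log2 1.12 ± 0.17 SE, edgeR adjusted p = 8.79e-05). miR-181b-5p, from the same precursor transcripts, was at 1668 and 1679 CPM against 733, 803, 862 and 816, which is 2.08-fold (log2 1.06 ± 0.18 SE, edgeR adjusted p = 0.000238). miR-181a-2-3p, the passenger arm made only by the chromosome 9 copy, was at 187 and 194 CPM against 71.2, 54.9, 49.8 and 77.1, or 2.98-fold higher. miR-181a-3p, the passenger arm of the chromosome 1 copy, was 2.13-fold higher. miR-181c-5p and miR-181d-5p share the seed ACAUUCA but not the change. miR-181c-5p was at 420 and 405 CPM in the media and at 289, 274, 603 and 490.4 in the plates, so that the media lay between plate 2 and plate 3. For miR-181a-3p the call did not hold with either medium alone (log2 0.99 and 1.16, edgeR adjusted p = 0.058 for HDM media and 0.074 for regular media), while 3 of the 4 calls held with each medium alone.

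miR-155-5p, induced in activated immune cells and in many tumours, was at 202 CPM in both media and at 89.6, 105, 91.2 and 93.0 in the plates. The media were alike and the plates were alike, with a 2.13-fold difference (log2 1.09 ± 0.21 SE, edgeR adjusted p = 0.00115). miR-193b-3p behaved otherwise, with 363 CPM in HDM media, 183 in regular media, and 76.1, 178, 92.1 and 165 in the plates. Regular media lay barely above HF7 plate 2, and the HF7 plates lay above the HF6 plates. It was called at 2.13-fold (log2 1.09 ± 0.30 SE, edgeR adjusted p = 0.016), but with regular media alone the log2 fold change was 0.54 and its adjusted p 0.54. Without HF6 plate 3 its adjusted p was 0.059.

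The miR-23, miR-27 and miR-24 clusters had 4 of 11 tested members higher and none lower, against 8.96% higher over all miRNAs, with a median log2 fold change of 0.43. miR-23b-3p was at 10826 and 10448 CPM in HDM and regular media and at 5754, 5419, 6891 and 6484 in the plates. Media and plates did not overlap, with a 1.73-fold difference (log2 0.79 ± 0.16 SE, edgeR adjusted p = 0.00125). miR-23a-3p, near-identical to it, was 1.5-fold higher, and miR-23a-5p and miR-27b-5p were the other called members. miR-24-3p and miR-27a-3p, from the same precursors, differed by log2 0.06 each and did not pass. Without HDM media 1 of the 11 was called, miR-23b-3p, and without regular media also 1. miR-23a-5p did not pass without any single library of the 6.

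The miRNA cluster in introns of the chloride transporter gene CLCN5 on chromosome X had 5 of 15 tested members higher and none lower, and all 15 log2 fold changes were above 0, with a median of 0.41. Over all miRNAs 8.96% were called higher. With GC offsets 14 of 15 were above 0 and 2 were called. miR-532-3p was at 222 and 200.1 CPM in the media and at 105, 114, 98.0 and 104 in the plates, or 2.0-fold higher (log2 1.0 ± 0.21 SE, edgeR adjusted p = 0.00219). miR-502-5p, miR-188-5p, miR-660-3p and miR-500a-5p rose by 0.62 to 0.83 on the log2 scale. Their partners miR-532-5p and miR-660-5p, the more abundant arms, differed by 0.08 and 0.42 and did not pass. The difference between the arms did not pass either (limma adjusted p = 0.184 for miR-532 and 0.419 for miR-660). No member was called without HDM media, and 1 was called without regular media. miR-188-5p, miR-500a-5p and miR-660-3p also did not pass without either of the HF6 plates (edgeR adjusted p = 0.074 to 0.086), nor did miR-502-5p without HF6 plate 2.

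In the miR-17-92 cluster and its paralogs, which promote proliferation, 3 of 19 tested members were higher, none lower, and the median was 0.17. miR-92a-3p was at 40217 and 40102 CPM against 25979, 31060, 28793 and 32101, a 1.36-fold difference (log2 0.45 ± 0.14 SE, edgeR adjusted p = 0.030), and miR-20a-3p and miR-25-5p also rose. The 3 in 19, all higher, are 15.8%, beside 15.9% called in either direction and 8.96% called higher over all miRNAs. miR-29b-1-5p and miR-29c-5p were higher among 7 tested miR-29 members, against 8.96% over all miRNAs, and both are passenger arms. Of 9 let-7 members, which restrain growth genes such as the RAS family, only let-7b-5p was called. let-7b-5p was at 6403 CPM in HDM media and 4376 in regular media, and at 2336, 2898, 2846 and 3192 in the plates. It was 1.91-fold higher (log2 0.94 ± 0.18 SE, edgeR adjusted p = 0.00115), and let-7a-5p, at log2 0.17, did not pass. miR-26a-5p rose by 0.59 on the log2 scale while its relative miR-26b-5p, with the same seed, stood at -0.20 and did not pass. miR-222-3p rose by 0.52. None of these calls held with regular media alone, where let-7b-5p had a log2 fold change of 0.66 (edgeR adjusted p = 0.11). With HDM media alone, let-7b-5p, miR-25-5p and miR-29b-1-5p passed and the other 5 did not. Leaving out HF6 plate 2 also removed miR-92a-3p and miR-26a-5p (edgeR adjusted p = 0.093 and 0.082), and leaving out HF6 plate 3 removed miR-92a-3p and miR-222-3p (0.083 and 0.061). Without HF7 plate 2, miR-26a-5p and miR-222-3p did not pass (0.081 and 0.058).

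Among miRNAs lower in the media, miR-146a-5p fell furthest of those with at least 100 CPM in either group. It is induced by NF-kB signalling and dampens it through TRAF6 and IRAK1. Its level was 96.8 CPM in HDM media and 65.2 in regular media, against 553, 472, 478 and 524 in the plates. The 4 plates were alike and lay far above both media. The log2 fold change was -2.64 ± 0.25 (SE, edgeR adjusted p = 1.94e-07), which is 6.25-fold lower. miR-146b-5p, with the same seed but from another chromosome, was at 115 and 146 CPM in the media and at 87.5, 111, 136 and 152 in the plates. Its ranges overlapped, at log2 0.11 (edgeR adjusted p = 0.80). miR-147b, from an exon of C15orf48, was named after its values were seen. Its 5p arm stood at 4.48 and 9.58 CPM in the media against 51.8, 51.6, 39.7 and 40.6 in the plates, which is 6.59-fold lower (edgeR adjusted p = 1.2e-05), and its 3p arm was 3.77-fold lower. Without regular media the 5p arm was at log2 -3.40 in place of -2.72.

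The miR-200 family holds cells in an epithelial state by repressing the factors ZEB1 and ZEB2. In it, 3 of 9 tested members were lower and none higher, against 6.95% lower over all miRNAs, with a median log2 fold change of -0.15. The 3 were miR-429, miR-200b-3p and miR-200a-3p, the 3p arms of the chromosome 1 cluster. miR-429 was at 9420 CPM in HDM media and 13776 in regular media, and at 27397, 27693, 25129 and 20879 in the plates. Every plate exceeded both media, and the difference was 2.18-fold (log2 -1.12 ± 0.18 SE, edgeR adjusted p = 0.000122). miR-200b-3p, which has the same seed, was at 51633 and 65043 CPM against 76419, 84832, 84367 and 87770.1. It was 1.43-fold lower (log2 -0.51 ± 0.14 SE, edgeR adjusted p = 0.014), and miR-200a-3p was 1.46-fold lower. miR-200c-3p, from the chromosome 12 cluster with that same seed, pointed the other way, at 28716 and 25090 CPM in the media and 17456, 19011, 21862 and 24609 in the plates. Its media lay above the plates, but the log2 fold change of 0.38 did not pass (edgeR adjusted p = 0.11). It did pass with total counts as the only scaling (log2 0.48, adjusted p = 0.016) and without HF7 plate 3 (log2 0.48, adjusted p = 0.031). miR-141-3p differed by log2 -0.15 and did not pass. Without HDM media, only miR-429 of the 3 was called (log2 -0.85, edgeR adjusted p = 0.029), with miR-200b-3p at -0.33 and miR-200a-3p at -0.39.

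miR-194-5p and miR-215-3p were lower (2 of 6, against 6.95% over all miRNAs) among the tested arms of miR-192, miR-194 and miR-215, which HNF1 factors drive in gut epithelium. miR-194-5p was at 54489 and 63038 CPM in the media and at 78076, 80135, 87771 and 80024 in the plates. All plates were higher, by 1.39-fold (log2 -0.47 ± 0.13 SE, edgeR adjusted p = 0.017). miR-192-5p, processed from the same transcripts, was at 42605 and 49457 CPM against 44812, 44758, 51545 and 56437. There the groups overlapped (log2 -0.10, edgeR adjusted p = 0.67). Neither call held with regular media alone, where miR-194-5p was at log2 -0.35 (edgeR adjusted p = 0.195). Without HF6 plate 3 the adjusted p of miR-194-5p was 0.061, and without HF7 plate 3 miR-215-3p was at log2 -1.19 instead of -1.89 and did not pass. miR-215-3p also did not pass with HDM media alone (edgeR adjusted p = 0.108) or without HF6 plate 3 (0.080).

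miR-101-3p, which represses the histone methyltransferase EZH2, was at 4083 CPM in HDM media and 5001 in regular media, against 8468, 9999, 7937 and 10565 in the plates. No plate reached down to the media, and the fold was 2.03 (log2 -1.02 ± 0.18 SE, edgeR adjusted p = 0.000312). Members of the miR-378 family fell together. miR-378a-3p, from an intron of the energy metabolism regulator PPARGC1B, was at 1429 and 1336 CPM against 2150, 2451, 2087 and 3226. miR-378c and miR-378d, which resemble it so closely that reads may be shared, fell by 0.87 and 0.85 on the log2 scale beside 0.84 for miR-378a-3p. HF7 plate 3 was the highest plate for all of them. None of these miR-378 calls held with either medium alone, where log2 fold changes lay between -0.92 and -0.84. Without HF7 plate 3, miR-378c and miR-378d were at -0.68 each and did not pass (edgeR adjusted p = 0.052 and 0.057).

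miR-374a-5p was lower at 1.90-fold, with 4075 and 5552 CPM against 10719, 6283, 10663 and 8838. Its log2 fold change was -1.21 with HDM media alone and -0.69 with regular media alone. Against the HF7 plates alone its log2 fold change was -0.65 and did not pass (edgeR adjusted p = 0.071). miR-374b-5p, from the same host transcript FTX (chosen once its values were known), was higher at 1.80-fold, with 2856 and 3760 CPM against 1328, 2622, 1822 and 1569. The 2 thus moved in opposite directions, with HF7 plate 2 nearest the media for each, and miR-374b-5p did not pass with either medium alone (edgeR adjusted p = 0.22 for HDM media and 0.072 for regular media). miR-186-5p fell by 0.82, miR-30e-5p by 0.78, miR-592 by 0.93 and miR-548x-3p by 0.94 on the log2 scale. miR-30e-5p was the only called member of 9 tested in the miR-30 family. With regular media alone these values ran from -0.84 (miR-592) to -0.65 (miR-186-5p), and none passed. Of 5 tested miR-148 and miR-152 members 3 were called, against 15.9% over all miRNAs. Of these miR-148b-3p and miR-148b-5p fell by 0.70 and 1.29, while miR-148a-5p rose 2.01-fold, and none held with regular media alone. miR-326 and miR-330-5p share a seed and were called in opposite directions, with miR-330-5p 2.02-fold lower. miR-330-5p did not pass with either medium alone (edgeR adjusted p = 0.15 for HDM media and 0.083 for regular media).

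Markers of other cell types were looked at beside these changes. In bulk libraries fewer cells of a type and less RNA per cell cannot be told apart. Of the leukocyte list 3 of 5 tested members were called, against 15.9% over all miRNAs, which were miR-150-5p and miR-155-5p (higher) as well as miR-146a-5p (lower). miR-142-3p, the defining blood cell miRNA, was at 2548 and 1810 CPM in the media and at 2183, 1765, 2752 and 2235 in the plates, and did not differ beyond that spread (log2 -0.04 ± 0.20 SE). miR-223-3p, a myeloid marker, had 0 counts in 5 libraries and 6 in HF6 plate 2. The summed level of the leukocyte list was 2938 to 3983 CPM in the media and 3087 to 4794 in the plates. miR-126-3p and miR-126-5p, made in endothelial cells from an intron of EGFL7, were low in both groups and lower in the media. miR-126-5p was at 4.48 and 5.41 CPM against 40.1, 29.1, 22 and 21.8, which is 5.78-fold lower (log2 -2.53 ± 0.37 SE, edgeR adjusted p = 4.82e-05). miR-126-3p was 3.02-fold lower, but without HDM media its adjusted p was 0.154, and without regular media it was at log2 -2.29 in place of -1.60.

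The summed stromal and endothelial list was 20.5 to 32.5 CPM in the media and 65.0 to 110 in the plates, with 2 of 4 tested members lower, against 6.95% over all miRNAs. miR-214-3p was at 0 in all 6 libraries, and miR-143-3p was at 0 in both media with at most 2 counts in a plate. Red blood cell markers were nearly absent. miR-486-5p was at 0 in all 6 libraries, and the list summed to 2.80 to 6.04 CPM in the media and 10.02 to 16.3 in the plates. miR-144-5p was lower in the media, but did not pass without HDM media (edgeR adjusted p = 0.35) or without HF6 plate 2 (0.089), and without regular media it was at log2 -2.44 in place of -1.60. The liver miRNA miR-122-5p had 4 and 2 counts in the media and 0 in every plate. The muscle marker miR-133b was at 0 throughout, and no tested muscle or neural marker was called. Whether RNA of other cells contributed to these changes was not tested.

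Among 33 tested entries that overlap other RNA classes, 1 was higher and 5 lower. These are 18.2% of the entries, near the 15.9% called over all miRNAs. Their summed level was 5279 to 5958 CPM in the media and 6623 to 9345 in the plates. miR-4485-3p, whose entry lies in the mitochondrial-like gene MTRNR2L8, led the decreases, with 347 CPM in HDM media, 926 in regular media and 1593, 2287, 1397 and 2033 in the plates. The media differed widely from each other, and the fitted difference was 2.87-fold (log2 -1.52 ± 0.29 SE, edgeR adjusted p = 0.00115). Without HDM media it was at log2 -0.96 with an adjusted p of 0.106, and without regular media at -2.44. The calls of these entries depended on HDM media, as did most calls over all miRNAs. With HDM media left out, the median log2 fold change of the entries was -0.31, beside -0.27 with both media. miR-1291, which lies within the small nucleolar RNA SNORA2C, was the 1 that was higher, at 2.41-fold.

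Of the lists not yet named, the HOX cluster, miR-183, miR-15 and miR-16, miR-130 and miR-301, and miR-320 lists had no called member. The miR-99, miR-100 and miR-125 list had 1 of 9, against 15.9% called and 6.95% called lower over all miRNAs. This was miR-99b-5p, which was lower at 15.7 and 23.5 CPM against 96.4, 77.4, 39.7 and 40.1. Its plate 2 values were well above its plate 3 values, and without HDM media it did not pass (log2 -1.43, edgeR adjusted p = 0.154). Of the hypoxia markers 4 of 10 were higher, against 8.96% over all miRNAs, and all of them are named above. Without HDM media 1 of the 10 was called, without regular media 2, and against the HF7 plates alone 1. miR-210-3p, the best known of these and induced by HIF, was at 132 and 98.5 CPM in the media and at 109.7, 101, 210.3 and 408 in the plates. It did not pass (log2 -0.85 ± 0.39 SE, edgeR adjusted p = 0.16), and the plate 2 libraries lay near the media with the plate 3 libraries above them. miR-100-5p, reported in exported RNA of colorectal cancer lines, and miR-125b-5p differed by log2 -0.01 and 0.17 and did not pass, nor did miR-1246 (-0.42) or miR-4521 (0.20). Neither did miR-451a (-1.49, edgeR adjusted p = 0.056). For miR-100-5p there were only 11 to 15 counts in the media and 3 to 12 in plates 2 and 3. A difference in that miRNA is therefore poorly measured.

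**Figure D3:**
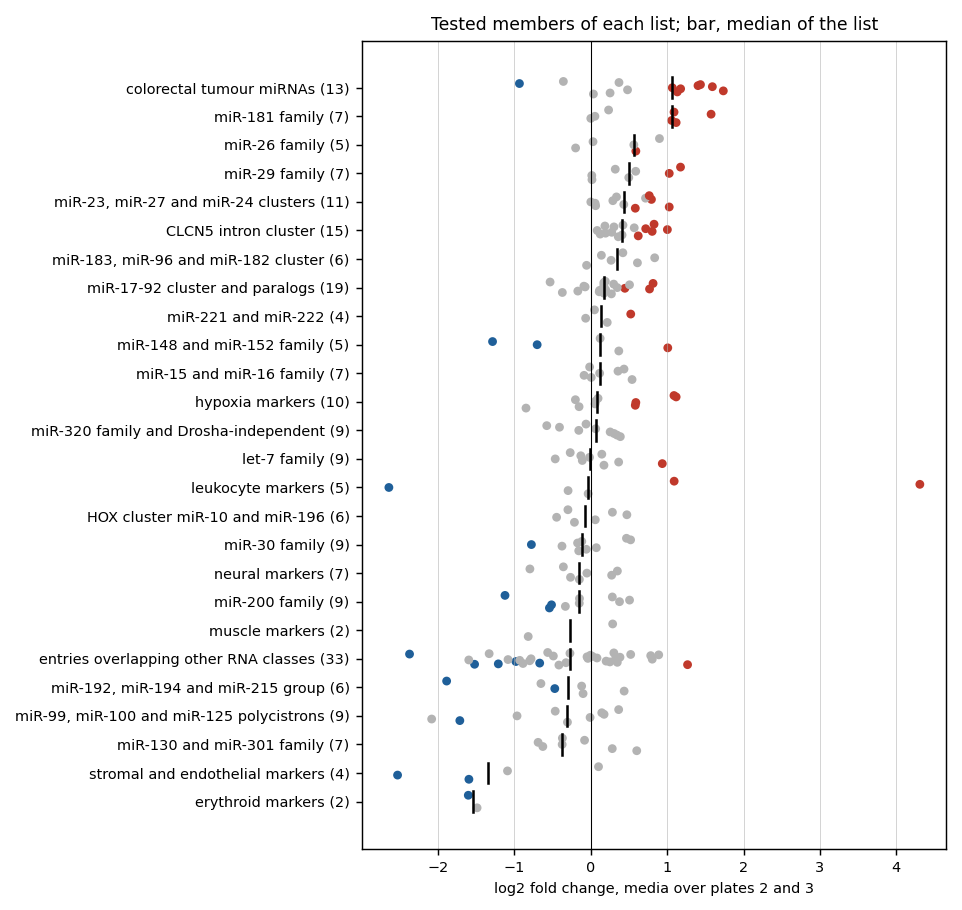
Log2 fold change (media over plates 2 and 3) of every tested member of each list, with called members in red (higher) or blue (lower), the rest in grey, a bar at each list's median, and the number tested in parentheses. The colorectal tumour list and the miR-181 family have medians of 1.07 and 1.06, and the leukocyte list spans -2.64 to 4.31.

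Both arms of a hairpin could be followed for 146 hairpins. For 6 both arms were called higher (miR-181a, miR-135b, miR-552, miR-574, miR-625 and miR-23a), and for 5 both were called lower (miR-374a, miR-148b, miR-4485, miR-147b and miR-126). In 33 hairpins 1 arm was called, and in 0 were the arms called in opposite directions. The log2 fold changes of the arms had the same sign in 96 of the 146. The 5p to 3p ratio, which sets aside any change of the hairpin as a whole, was called for 0 of the 146 (0%) by limma, with 26 at an unadjusted p under 0.05 and a lowest adjusted p of 0.184. A count fit in edgeR with the hairpin total as offset also called 0, with 32 at an unadjusted p under 0.05. Against plate 3 alone, limma called 6.

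**Figure D4:**
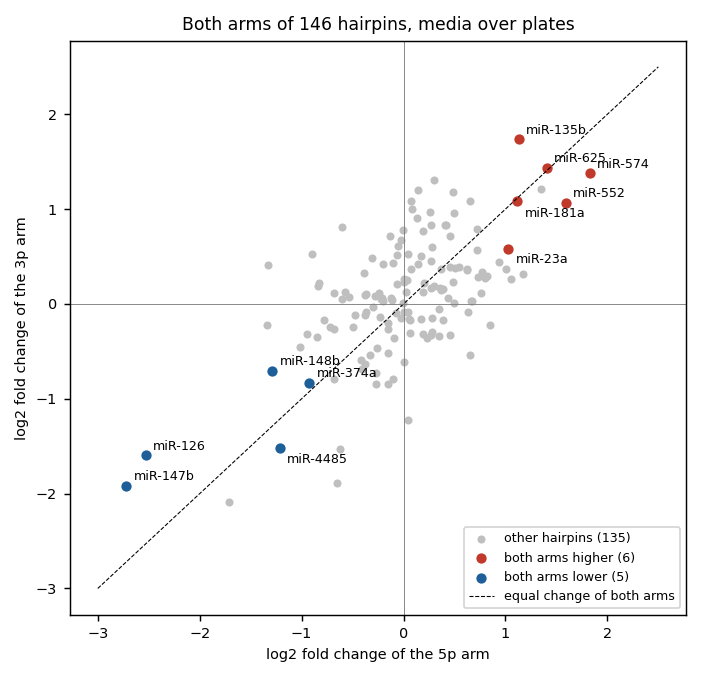
Log2 fold change of the 5p arm (horizontal) against that of the 3p arm (vertical), media over plates 2 and 3, for 146 hairpins, with the dashed line marking equal change. The 6 hairpins with both arms higher lie at the upper right, and the 5 with both arms lower at the lower left, with miR-147b at -2.72 and -1.92.

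Each medium was also set against the 4 plates on its own. HDM media alone gave 68 calls among 590 tested (11.5%), with 35 higher and 33 lower, and 60 of the 68 were among the 87. Regular media alone gave 17 of 578 (2.94%), with 11 higher and 6 lower, and all 17 were among the 87. In both fits the lone medium is assumed to vary as the plates do. All 87 kept their direction with each medium. As they were called with both media in the fit, and 84 of them had no overlap, this was largely fixed beforehand. The medians that follow come from this same selected set. The median log2 fold change of the 49 higher miRNAs was 1.07 with HDM media and 0.90 with regular media, and that of the 38 lower was -1.42 and -0.86. As both fits use the same plates, and each medium is 1 library, the difference between media was not tested. The 17 called with regular media alone were miR-150-5p, miR-1247-5p, miR-552-5p, miR-181a-2-3p, miR-326, miR-625-3p, miR-224-3p, miR-181a-5p, miR-155-5p, miR-181b-5p and miR-23b-3p, which were higher, and miR-146a-5p, miR-126-5p, miR-147b-5p, miR-147b-3p, miR-101-3p and miR-429, which were lower. Their log2 fold changes there ran from 3.59 for miR-150-5p to -2.93 for miR-146a-5p.

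In the other libraries of the series, scaled here by library total alone and given without a test, the media levels of several miRNAs were near those of the libraries labelled unfiltered or filtered HDM. miR-1247-5p was at 146 to 360 CPM in the media and 29.7 to 39.6 in plates 2 and 3. It was at 22.8 to 23.6 in plate 1, 6.79 to 12.8 in cell pellets, 219 to 334 in unfiltered HDM and 264 to 273 in filtered HDM. The order thus ran from pellets through plates to HDM and media. miR-150-5p was at 0 to 4.46 CPM in every plate and pellet library, and at 35.3 to 93.5 in every media and HDM library. miR-146a-5p ran the opposite way, at 3918 to 5226 CPM in pellets, 2116 to 2777 in plate 1, 454 to 566 in plates 2 and 3, 277 to 406 in unfiltered HDM, 98.7 to 125 in filtered HDM and 63.9 to 108 in the media. miR-625-3p did not follow such an order, with 341 to 372 CPM in pellets, above the media at 226 to 277. It was at 256 to 312 in plate 1, overlapping the media, and only 77.8 to 103 in plates 2 and 3. Nor did miR-135b-5p, at 1085 to 1682 CPM in pellets and 1676 to 1856 in plate 1. Its media levels were 1055 to 1174, with 332 to 691 in plates 2 and 3. miR-101-3p was at 7539 to 10154 CPM in plates 2 and 3 and 3752 to 9151 in pellets, against 4129 to 5153 in plate 1 and 4549 to 4905 in the media. The low values of plates 2 and 3 for miR-625-3p and miR-135b-5p, and their high values for miR-101-3p, were not shared by plate 1.

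**Figure D5:**
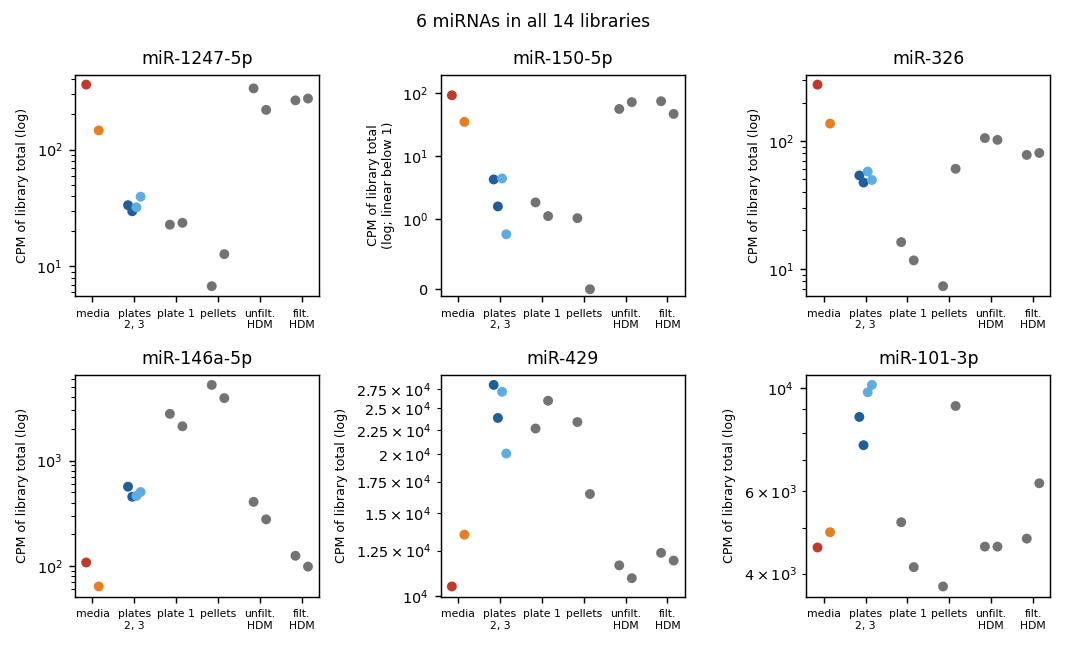
CPM of the library total (log axes, linear below 1 for miR-150-5p) of 6 miRNAs in all 14 libraries, 1 point per library, with HDM media in red, regular media in orange, HF6 plates 2 and 3 in dark blue, HF7 plates 2 and 3 in light blue and all others in grey. For miR-1247-5p the media (146 to 360) and HDM libraries (219 to 334) lie above the plates and pellets, and for miR-146a-5p the pellets (3918 to 5226) lie highest.

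Base composition differed for the lower calls but not, by the median, for the higher ones. The median GC content was 47.8% for the 49 higher miRNAs, 40.9% for the 38 lower and 47.8% for the rest. Between GC content and log2 fold change, Spearman's rho was 0.21 and Pearson's r 0.12 over 547 miRNAs, which share libraries. Weighted by counts, GC content was 42.4% in HDM media and 41.8% in regular media, against 41.4% to 41.7% in the plates. With offsets that remove the trend with GC content in each library, an alternative added after the data were seen, 81 miRNAs were called, 71 of them among the 87.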

How the data were processed

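Per the labels' protocols, miRNeasy was used for extraction and the NEXTflex small RNA kit for library preparation. cutadapt 2.10, Bowtie 1.3.1, FastQC and the build GRCh38 are named in the submitters' processing notes. The deposited values are expected counts per mature miRNA, not normalized, for 1619 entries and 14 libraries. Some are fractions, which were rounded to whole counts; the rule behind them, the annotation release and any filters are not given in the sources used here.

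The 6 libraries (1246503 to 4896931 counts) were fitted in edgeR 4.0.16 (quasi-likelihood, TMM, filterByExpr by group, 4 residual degrees of freedom). The 547 miRNAs tested hold at least 99.96% of the counts. Calls needed an adjusted p (Benjamini-Hochberg) below 0.05. The SE is the log2 fold change over the square root of F, levels are TMM-normalised CPM, and since no molecular identifiers are given, counting intervals cover counting error only. Arm ratios, log2 of 5p over 3p counts with a pseudocount of 1, were tested with limma 3.58.1. Chi-square tests of replicate pairs gave 34.9 to 131 per degree of freedom, so no pair is 1 library deposited in duplicate. The scripts were tested on simulated data with equal spread in both groups, which does not measure the error rate of the calls made here.

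The 6 libraries, the 27 lists of miRNAs and the naming rule were chosen with earlier results of these data known. The rule names the 12 called miRNAs that increased most and the 12 that decreased most, where either group averaged 100 CPM or more and no libraries overlapped. It adds 14 chosen miRNAs, the 10 most abundant, and of each list the 4 most abundant and every called member. Names outside it were chosen after their values were seen. Hosts come from GENCODE release 29. Of the 1619 entries, 1445 matched a RefSeq mature miRNA by name, all with the same sequence, and 120 have a near-identical entry, with 1 mismatch at most. Alternatives included DESeq2 1.42.0, limma-voom, other scalings and filters, subsets of the plates, thinning to the smallest total and leaving out each library.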

Additional observations from a re-analysis of the deposited data

Results flagged for a closer look

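Among 136 named miRNAs, 11 had 1 plate library standing apart from the other 3, with a gap to the nearest of them above Dixon's critical value, and chance gives about 1 such case in 20. HF7 plate 3 stood above the other plates for let-7g-5p (22259 CPM, others 18983 to 19109.9), miR-378c (166 CPM), miR-378d (140.4 CPM), miR-1247-5p (41.2 CPM) and miR-320c (98.7 CPM). HF7 plate 2 was the highest plate for miR-186-5p (2856 CPM), miR-125b-5p (1056 CPM) and miR-625-3p (104.7 CPM), and the lowest for miR-27b-3p (8619 CPM). HF6 plate 2 was the lowest for miR-30d-5p (18208 CPM) and miR-196b-5p (2083 CPM).

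For 6 named miRNAs the difference from the media depended on the plate number, as tested by plate 3 against plate 2 with both media in the fit (edgeR adjusted p, 14 miRNAs passing in all). miR-210-3p, induced in low oxygen, was higher in plate 3 by 1.57 on the log2 scale (adjusted p = 0.000436), with a media fold change of 0.10 against plate 2 and -1.43 against plate 3. miR-499a-5p was higher in plate 3 by 1.56 (0.000436), with media fold changes of 1.21 and -0.32. miR-215-3p was higher in plate 3 by 2.0 (0.0151), with -0.68 and -2.64. miR-181c-5p was higher by 0.95 (0.0134), with 0.52 and -0.40, and miR-148a-3p by 0.87 (0.0055), with 0.84 and 0.00108. miR-99b-5p was lower in plate 3, at -1.12 (0.0208), with -2.18 and -1.02. Of these, miR-99b-5p and miR-215-3p were called between media and plates. What separates plate 2 from plate 3 is not stated in the labels.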

How the results depend on the processing

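The count of 87 calls ran from 66 (a fit of all 14 libraries) to 109 (plate number as a term) over alternatives that kept all 6 libraries. Against the HF7 plates alone it was 52, and leaving out each library in turn gave 17 (without HDM media) to 98. DESeq2 gave 86, limma-voom 82, plate 2 alone 99 and plate 3 alone 73. The 0 changed arm ratios became 6 against plate 3 alone, and leaving out each library gave 0 to 2 (2 without HF7 plate 2). The cause of these changes was not tested. Leaving out either medium leaves 1 media library. Of 61 called miRNAs named by the rule, 15 passed under all 21 alternatives and 30 under those that left out no single library. Leaving out HDM media ended 46 of the 61 calls and leaving out regular media 18. No called value changed sign. Values that passed under neither setting changed sign 147 times, over 36 miRNAs, including miR-21-5p 7 times. No paired analysis was possible because the media labels carry no HF or plate number. Depth limits miRNAs near 3 counts, which is 0.613 CPM in regular media and 2.41 CPM in HF6 plate 3.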
